A study of Oryzias latipes with 12 samples.

Results

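Receptors for the brain's transmitters were read out gene by gene in medaka (Oryzias latipes). They were picked by gene symbol, with the families for GABA, glycine, glutamate, acetylcholine, serotonin, dopamine, noradrenaline and histamine. Of the 26663 genes in the table, 54 carried such a symbol. A level of at least 1 TPM (transcripts scaled for gene length and for the library total) in at least 3 libraries was reached by 51 of them, out of 18218 genes in all. A symbol matched by its letters but names a scaffold protein, and values are given below for 46 receptor genes. The genes below the level were chrm4, with at most 0.41 TPM in any library, chrna1, with at most 1.1 TPM, and chrna9, with at most 0.82 TPM. Genes that carry only a LOC number in the reference lay outside the rule, so further members of these families, such as the NMDA subunit grin1, were not analysed here.

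The tissue held the ventral telencephalon, the hypothalamus and the pituitary of fish collected at hour 12. There were 4 groups of 3 libraries. Knockout fish lacking phod1 (pd1 in some labels) after 12 days of long days had the library numbers 13, 14 and 16, and wild-type fish after 12 days of long days had 13, 14 and 15. Knockout fish under short days, before any transfer, had 1, 3 and 4, and wild-type fish under short days had 1, 2 and 3. Allele, sex and age were not in the labels, nor was it said whether the 3 libraries of a group were separate fish, so p-values measure the spread between libraries, which may be technical. All short-day libraries were taken before the transfer and none 12 days later, so the effect of day length, of age and of the transfer as such cannot be told apart.

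Transmitter receptors fall into a pair of broad kinds. Ligand-gated channels are built from several subunits and open within milliseconds: GABA-A and glycine receptors pass chloride, while AMPA, kainate, NMDA and nicotinic receptors pass cations. G protein-coupled receptors, such as GABA-B, metabotropic glutamate, muscarinic, dopamine and most serotonin receptors, act more slowly through second messengers. In the fish hypothalamus and pituitary, GABA, glutamate and dopamine are known to act on the neurons and cells that control gonadotropin release. The roles given for genes below are those known from mammals.

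Pairs of libraries of the same group had Pearson correlations of 0.971 to 0.980 across genes on the log2(TPM + 1) scale, and pairs of different groups 0.957 to 0.979. Sequencing depth cannot be read from TPM and is unknown. Neither phod1 nor pd1 matched a symbol, so the loss of the targeted gene could not be checked in these libraries. Wild-type short-day replicate 3 stood apart by the interferon-induced gene rsad2, at 287 TPM against at most 6.3 TPM in the other 11 libraries. It held the lowest value of the 12 libraries for 1 of the 46 receptor genes and the highest for 2. The results for gabrg3, grm8 and several calls of pathway and marker genes are given below with and without it. The summed level of 8 matched pituitary marker genes ran from 4659 to 9231 TPM in knockout long-day libraries, from 5239 to 9503 TPM in wild-type long-day libraries, from 2119 to 9278 TPM in knockout short-day libraries and from 3552 to 6670 TPM in wild-type short-day libraries. Among the markers, prl was at 0 in 10 of the 12 libraries. The marker sum varied within every group, and its part in the results below was not tested.

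Receptor genes of the fast transmitters were the most abundant. Over the 12 libraries the AMPA subunit gene gria2, which sets the calcium permeability of the channel, averaged 542 TPM. The GABA-A subunit genes followed, with the beta subunit gene gabrb2 at 233 TPM, the delta subunit gene gabrd, known from extrasynaptic receptors, at 211 TPM, and the alpha subunit gene gabra5 at 161 TPM. The glycine receptor beta subunit gene glrb, which ties the receptor to gephyrin, averaged 149 TPM. Of the 46 genes, 12 averaged at least 50 TPM, 15 lay from 10 to under 50 TPM and 19 lay below 10 TPM.

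GABA-A genes ran down to gabrg3 at 0.903 TPM. The GABA-B genes gabbr1 and gabbr2, whose proteins pair to form the receptor, averaged 69.3 and 61.5 TPM. The glycine receptor gene lowest in level was glra1 at 4.31 TPM. Among NMDA genes grin2b was highest at 95.4 TPM and grin3b lowest at 3.85 TPM. Kainate genes ran from grik5 at 42.1 TPM to grik1 at 2.56 TPM, and metabotropic glutamate genes from grm2 at 85.2 TPM to grm8 at 18.2 TPM.

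Monoamine receptor genes averaged at most 19.7 TPM. The neuronal nicotinic subunit gene chrnb2 averaged 65.6 TPM and the muscle-type subunit gene chrnd 1.46 TPM. Of the muscarinic genes described here only chrm2 passed the filter, at 27.5 TPM. Serotonin receptor genes ran from htr7 at 19.7 TPM to htr2b at 1.38 TPM, and dopamine receptor genes from drd2 at 12.7 TPM to drd5 at 4.57 TPM. Adrenergic genes ran from adra2c at 16.5 TPM to adra1d at 2.91 TPM, with adrb1 at 5.64 TPM, and hrh1, for histamine, averaged 15.7 TPM.

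**Figure D1:**
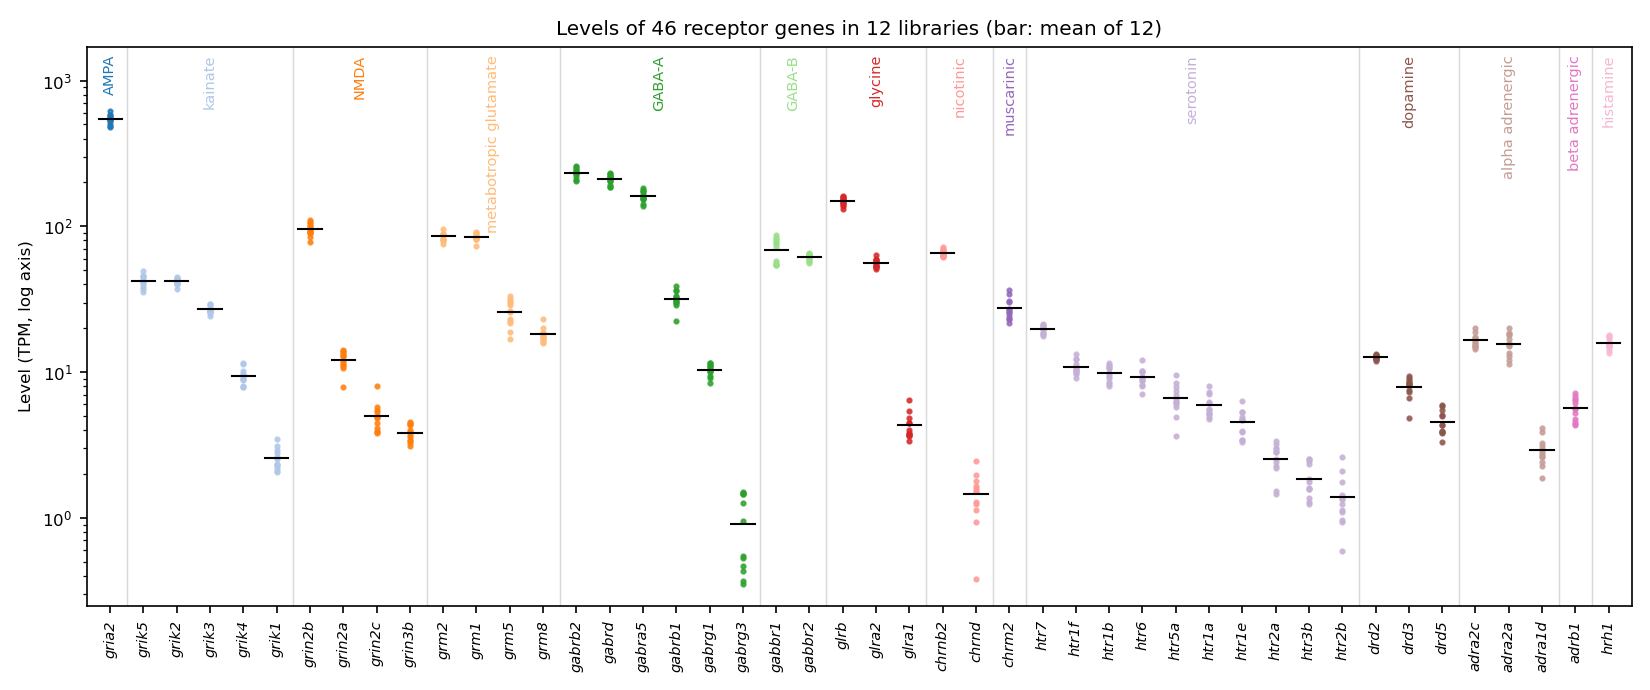
Level of each of the 46 receptor genes in TPM on a log axis, with 1 point per library, a bar at the mean of the 12 libraries, and genes ordered by class and then by mean. The AMPA gene gria2 stood highest at 542 TPM and gabrg3 lowest at 0.903 TPM.

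All 46 receptor genes together came to 2257 ± 73.9 TPM in knockout long-day libraries, 2235 ± 173 TPM in wild-type long-day libraries, 2212 ± 112 TPM in knockout short-day libraries and 2222 ± 102 TPM in wild-type short-day libraries (SD, n = 3 each). The 11 GABA and glycine receptor genes summed to 1001 ± 18.4 TPM in knockout long-day, 988 ± 54.8 TPM in wild-type long-day, 987 ± 30.3 TPM in knockout short-day and 975.4 ± 49.7 TPM in wild-type short-day libraries. The 14 glutamate receptor genes summed to 1006 ± 54.3 TPM in knockout long-day, 1004 ± 121 TPM in wild-type long-day, 978 ± 69.0 TPM in knockout short-day and 992 ± 54.3 TPM in wild-type short-day libraries. These sums are carried by the few genes over 100 TPM, and the ranges of all groups overlapped.

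For acetylcholine, the 3 genes summed to 99.1 ± 8.61 TPM in knockout long-day, 92.4 ± 6.78 TPM in wild-type long-day, 93.9 ± 6.82 TPM in knockout short-day and 92.5 ± 6.10 TPM in wild-type short-day libraries. The 18 monoamine receptor genes summed to 150.9 ± 0.626 TPM in knockout long-day, 150.5 ± 5.502 TPM in wild-type long-day, 153 ± 6.87 TPM in knockout short-day and 162 ± 2.14 TPM in wild-type short-day libraries. In monoamine sums the 3 wild-type short-day libraries, at 161 to 165 TPM, lay above the other 9, at 145 to 158 TPM. That split was picked out after the sums were seen, and it was not tested. In bulk tissue, fewer cells of a type and less RNA per cell cannot be told apart.

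The genes differed in how steady they were. The coefficient of variation over all 12 libraries was lowest for drd2, at 3.46%, and highest for gabrg3, at 55.1%. It was under 10% for 17 of the 46 genes and over 20% for 11. The highest group mean was at least 1.5 times the lowest for 3: gabrg3 with a ratio of 3.86, chrnd with 1.67 and htr5a with 1.66.

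Knockout and wild-type fish were compared over both day lengths, within short days and within long days, in 1 limma fit on log2(TPM + 1) across all 18218 genes, and a gene was called where its p, adjusted by Benjamini-Hochberg over all tested genes, was under 0.05. Over both day lengths the GABA-A subunit gene gabrg3 was higher in the knockout and passed the test. This was 1 of 46 receptor genes, or 2.17%, beside 2.4% of all tested genes called. That gene passed the filter only through its knockout libraries, so the count is a description. None was called lower, and 3 had an unadjusted p under 0.05, beside 15.6% of all genes. The median difference was 0.01 over the receptor genes and -0.00 over all genes (log2 scale), with 24 receptor genes higher and 22 lower in the knockout, before and after median-ratio scaling.

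The gamma subunit gene gabrg3 (gene 105354030) encodes a gamma subunit of GABA-A receptors, the kind of subunit that anchors them at synapses. It stood at 1.45, 1.48 and 1.51 TPM in knockout long-day libraries, against 0.53, 0.55 and 0.47 TPM in wild-type long-day libraries. It stood at 0.95, 1.27 and 1.47 TPM in knockout short-day libraries, against 0.43, 0.35 and 0.37 TPM in wild-type short-day libraries. Every knockout library lay above every wild-type library. All 6 wild-type values were under 1 TPM. With no filter on low values, and 23768 genes tested, it was also called (difference 0.70, SE 0.07, adjusted p = 0.00239). The difference was that of the main fit given below and the SE was smaller, so the lower p came with the smaller SE. The fits share the same values of gabrg3, and the SE draws in part on the other genes tested. The call with no filter is therefore no independent evidence.

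The mean of gabrg3 was 1.36 ± 0.216 TPM in knockout and 0.450 ± 0.0820 TPM in wild-type libraries (SD, n = 6 each), a ratio of means of 3.01. On the log2(TPM + 1) scale, which understates the change of so low a gene, the difference was 0.70 (SE 0.12, adjusted p = 0.0152). With a pseudocount of 0.1 in place of 1 it was 1.40 (adjusted p = 0.0187). Within long days the difference was 0.71 (SE 0.17, adjusted p = 0.0978) and within short days 0.68 (SE 0.17, adjusted p = 0.117). The call over both day lengths held in all 12 fits that left out a library, with an adjusted p of at most 0.0412. These fits kept the genes of the full filter, which gabrg3 passed only through its knockout libraries, so they do not bear on that choice. Without the interferon-high wild-type short-day replicate 3 the difference was 0.69 (adjusted p = 0.0388).

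**Figure D2:**
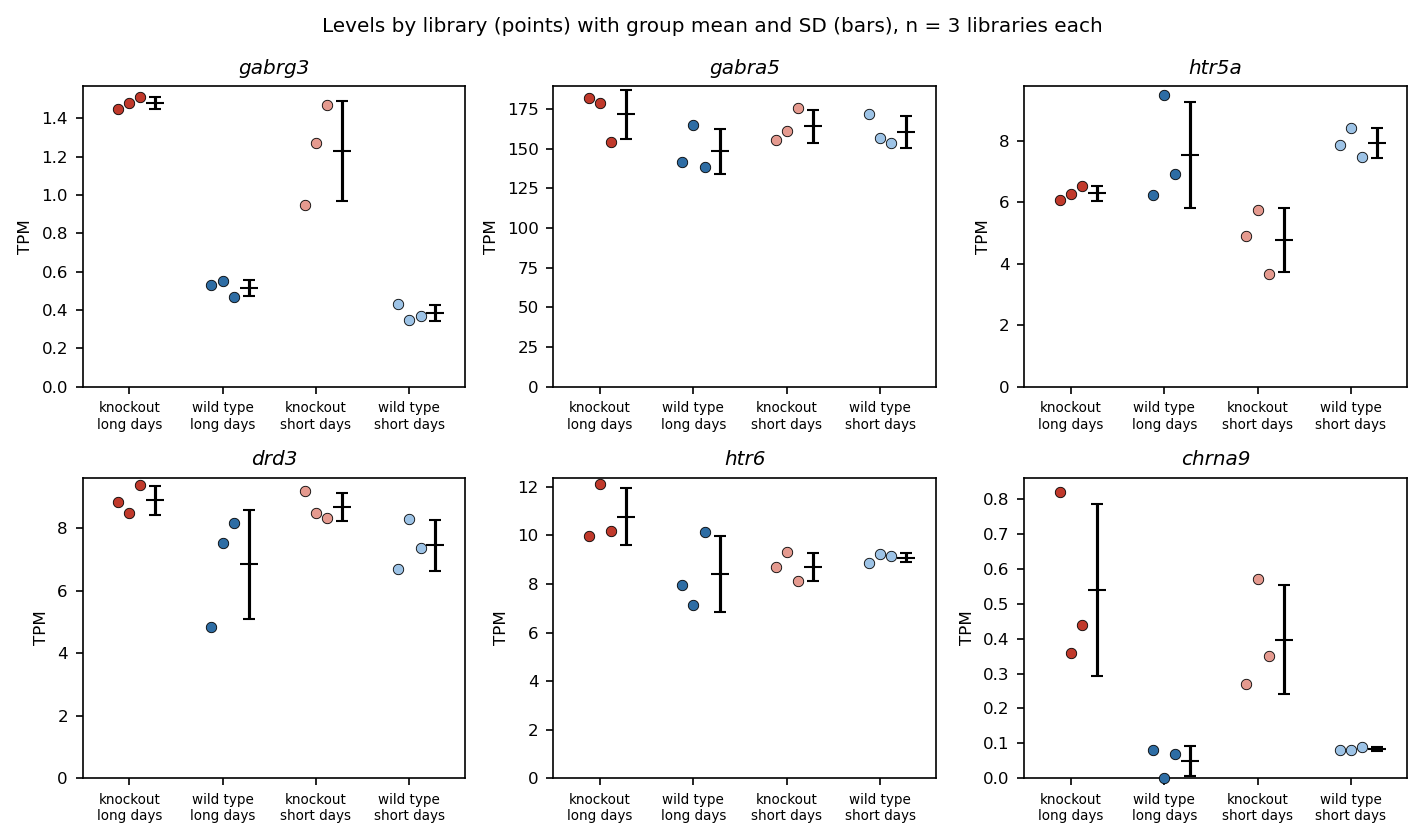
Level in TPM of 6 receptor genes in each library (points), with the mean and SD of each group (bars, n = 3). For gabrg3, drd3 and chrna9 all knockout points lie above all wild-type points, while htr5a separates under short days only, and gabra5 and htr6 overlap at both.

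In the reference assembly ASM223467v1, gabrg3 and the alpha subunit gene gabra5 lie close together, with 1 tested gene, LOC111947393, between them, and in mammals genes of the same names are also neighbours. The alpha subunit gene gabra5 stood at 182, 179 and 154 TPM in knockout long-day libraries, against 142, 165 and 139 TPM in wild-type long-day libraries. It stood at 156, 161 and 175 TPM in knockout short-day libraries, against 172, 157 and 153 TPM in wild-type short-day libraries. The groups overlapped at both day lengths, and the difference was 0.21 within long days (SE 0.09, adjusted p = 0.395) and 0.12 over both (SE 0.06, adjusted p = 0.396).

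LOC111947393, named in the reference by its number only, stood at 3.75, 5.40 and 1.29 TPM in knockout long-day libraries, against 0.39, 1.21 and 0.00 TPM in wild-type long-day libraries. It stood at 1.67, 0.95 and 1.91 TPM in knockout short-day libraries, against 0.00, 0.42 and 0.91 TPM in wild-type short-day libraries. Every knockout library lay above the wild-type libraries of its day length, but the difference of 1.16 did not pass (adjusted p = 0.0617). Of all genes, 15.8% did not overlap between genotypes under long days and 19.5% under short days. Like gabrg3, LOC111947393 passed the filter only through its knockout libraries. It was looked at for its place beside gabrg3, so these values are a description. Other receptor genes that lay close together were gria2 and glrb, next to each other, and gabrb1 and gabrg1, with 2 tested genes between them, and none of these was called in any comparison.

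The other GABA and glycine receptor genes did not pass in any genotype comparison. Over both day lengths 7 of the 11 genes were higher and 4 lower in the knockout (median 0.06, log2 scale), and the lowest difference was -0.06, for glrb (adjusted p = 0.684). The inhibitory glycine receptor alpha subunit gene glra2 stood at 51.3 to 58.5 TPM in knockout long-day, 54.4 to 59.02 TPM in wild-type long-day, 52.7 to 63.8 TPM in knockout short-day and 52.9 to 53.9 TPM in wild-type short-day libraries. The GABA-B gene gabbr1 varied within every group, from 54.1 to 83.3 TPM in knockout long-day and from 54.5 to 86.6 TPM in wild-type long-day libraries, while its partner gabbr2 stayed between 55.7 and 65.6 TPM in all 12.

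None of the 14 glutamate receptor genes was called by genotype, and over both day lengths 7 were higher and 7 lower in the knockout (median 0.01, log2 scale). The smallest adjusted p was 0.352, for the kainate subunit gene grik4, with 8.94, 8.85 and 9.77 TPM in knockout long-day libraries, against 8.91, 7.95 and 7.95 TPM in wild-type long-day libraries. It stood at 11.4, 9.41 and 11.6 TPM in knockout short-day libraries, against 7.98, 9.54 and 10.1 TPM in wild-type short-day libraries. The values overlapped at both day lengths, and the difference was 0.17 over both (SE 0.08) and 0.21 within short days (SE 0.12, adjusted p = 0.488), the last 0.12 without wild-type short-day replicate 1.

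The NMDA subunit genes grin2a and grin2b encode glutamate-binding subunits with different kinetics. In short-day libraries grin2a stood at 13.8, 14.1 and 10.8 TPM in the knockout, against 7.94, 11.2 and 11.5 TPM in wild type, a difference of 0.31 (SE 0.15, adjusted p = 0.405). The groups overlapped, and without wild-type short-day replicate 1, the lowest library, the difference was 0.16. The ratio of grin2b to grin2a was 7.77 ± 0.128 in knockout long-day, 7.87 ± 0.877 in wild-type long-day, 7.01 ± 0.327 in knockout short-day and 9.29 ± 1.32 in wild-type short-day libraries (SD, n = 3 each). The metabotropic gene grm8, an inhibitory presynaptic autoreceptor, averaged 17.6 ± 0.471 TPM in knockout long-day and 20.2 ± 2.94 TPM in wild-type long-day libraries, a difference of -0.18 (adjusted p = 0.598), which was -0.08 without wild-type long-day replicate 14.

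Among the acetylcholine receptor genes none of 3 was called. The muscle-type nicotinic subunit gene chrnd had 1.65, 1.79 and 0.38 TPM in knockout long-day libraries, against 1.96, 2.44 and 1.61 TPM in wild-type long-day libraries. Under short days it stood at 1.14, 0.94 and 1.52 TPM in the knockout, against 1.24, 1.53 and 1.29 TPM in wild type. The knockout difference within long days was -0.46 (SE 0.26, adjusted p = 0.559), and without knockout long-day replicate 16, the library at 0.38 TPM, it was -0.13.

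Below the filter lay chrna9, a nicotinic subunit gene known from hair cells of the inner ear. It stood at 0.82, 0.36 and 0.44 TPM in knockout long-day libraries, against 0.08, 0.00 and 0.07 TPM in wild-type long-day libraries. It stood at 0.27, 0.57 and 0.35 TPM in knockout short-day libraries, against 0.08, 0.08 and 0.09 TPM in wild-type short-day libraries. Every knockout library lay above every wild-type library. With no filter on low values, and 23768 genes tested, the difference over both day lengths was 0.45 (SE 0.08, adjusted p = 0.0278), and gabrg3 was called as well. All levels were below 1 TPM, the reads behind them are unknown, and the gene was singled out after its values were seen.

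None of the 18 monoamine receptor genes was called by genotype, with 8 higher and 10 lower in the knockout over both day lengths (median -0.02, log2 scale). The serotonin receptor gene htr5a, which couples to inhibitory G proteins, stood at 6.07, 6.28 and 6.54 TPM in knockout long-day libraries, against 6.23, 9.5 and 6.93 TPM in wild-type long-day libraries. It stood at 4.91, 5.76 and 3.67 TPM in knockout short-day libraries, against 7.88, 8.43 and 7.47 TPM in wild-type short-day libraries. Under short days all knockout values lay below all wild-type values, and under long days the groups overlapped. The difference was -0.64 within short days (SE 0.17, adjusted p = 0.120), -0.21 within long days (SE 0.17, adjusted p = 0.709) and -0.43 over both (SE 0.12, adjusted p = 0.0891). Without wild-type long-day replicate 14, at 9.5 TPM, the long-day difference was -0.05.

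The dopamine receptor gene drd3, coupled to inhibitory G proteins, stood at 8.83, 8.47 and 9.39 TPM in knockout long-day libraries, against 4.85, 7.52 and 8.15 TPM in wild-type long-day libraries. It stood at 9.18, 8.49 and 8.33 TPM in knockout short-day libraries, against 6.69, 8.30 and 7.36 TPM in wild-type short-day libraries. All 6 knockout values lay above all 6 wild-type values, with the closest pair at 8.33 and 8.30 TPM. The difference over both day lengths was 0.28 (SE 0.11, adjusted p = 0.252), and 0.18 without wild-type long-day replicate 13, at 4.85 TPM. Its relative drd2, through which dopamine holds back pituitary hormone release, stayed between 11.9 and 13.3 TPM in all 12 libraries.

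The alpha-2 adrenergic gene adra2a, an inhibitory autoreceptor on noradrenaline neurons, averaged 13.5 ± 1.72 TPM in knockout long-day, 15.1 ± 1.68 TPM in wild-type long-day, 15.2 ± 3.503 TPM in knockout short-day and 18.9 ± 1.22 TPM in wild-type short-day libraries (SD, n = 3 each). The knockout difference over both day lengths was -0.24 (SE 0.11, adjusted p = 0.328), and within short days -0.32 (adjusted p = 0.415). Without knockout short-day replicate 4 these were -0.15 and -0.14. The serotonin autoreceptor gene htr1b averaged 9.45 ± 0.384 TPM in knockout long-day, 10.3 ± 1.52 TPM in wild-type long-day, 9.01 ± 1.41 TPM in knockout short-day and 10.7 ± 0.759 TPM in wild-type short-day libraries, a difference over both of -0.17 (SE 0.09, adjusted p = 0.438) and of -0.23 within short days (adjusted p = 0.499). For htr6, a serotonin receptor that raises cyclic AMP, the values were 9.99, 12.1 and 10.2 TPM in knockout long-day libraries, against 7.97, 7.12 and 10.1 TPM in wild-type long-day libraries. These overlapped, and the difference within long days was 0.33 (SE 0.13, adjusted p = 0.339).

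Within a day length no receptor gene was called between genotypes. Under short days limma called 0 of 46, against 0.664% of all genes, with 2 at an unadjusted p under 0.05, beside 13.2% of all genes. Under long days it called 0 of 46, against 0.642% of all genes, with 4 at an unadjusted p under 0.05, beside 11.3% of all genes. Libraries of the genotypes did not overlap for 5 receptor genes under short days, where 19.5% of all genes did not, and for 2 under long days, where 15.8% of all genes did not. Under short days drd3, grm2 and gabrg3 were higher and htr3b and htr5a lower in all knockout libraries, and under long days drd3 and gabrg3 were higher. Over both day lengths the 6 knockout and 6 wild-type libraries did not overlap for 2 receptor genes, drd3 and gabrg3, beside 1.87% of all genes. Each of these counts takes in gabrg3, which passed the filter only through its knockout libraries, so the counts are a description.

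The intervals give a range for each gene by itself, with no adjustment over the 46 genes. Over both day lengths the 95% interval of the genotype difference lay within 1.5-fold in either direction for 43 of the 46 receptor genes and within 2-fold for all 46, on the scale of TPM + 1. Under short days 35 lay within 1.5-fold and 44 within 2-fold, and under long days 38 lay within 1.5-fold and 44 within 2-fold. For low genes this scale is narrower than the ratio of TPM: gabrg3, with a ratio of means of 3.01, counts as within 2-fold over both day lengths.

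**Figure D3:**
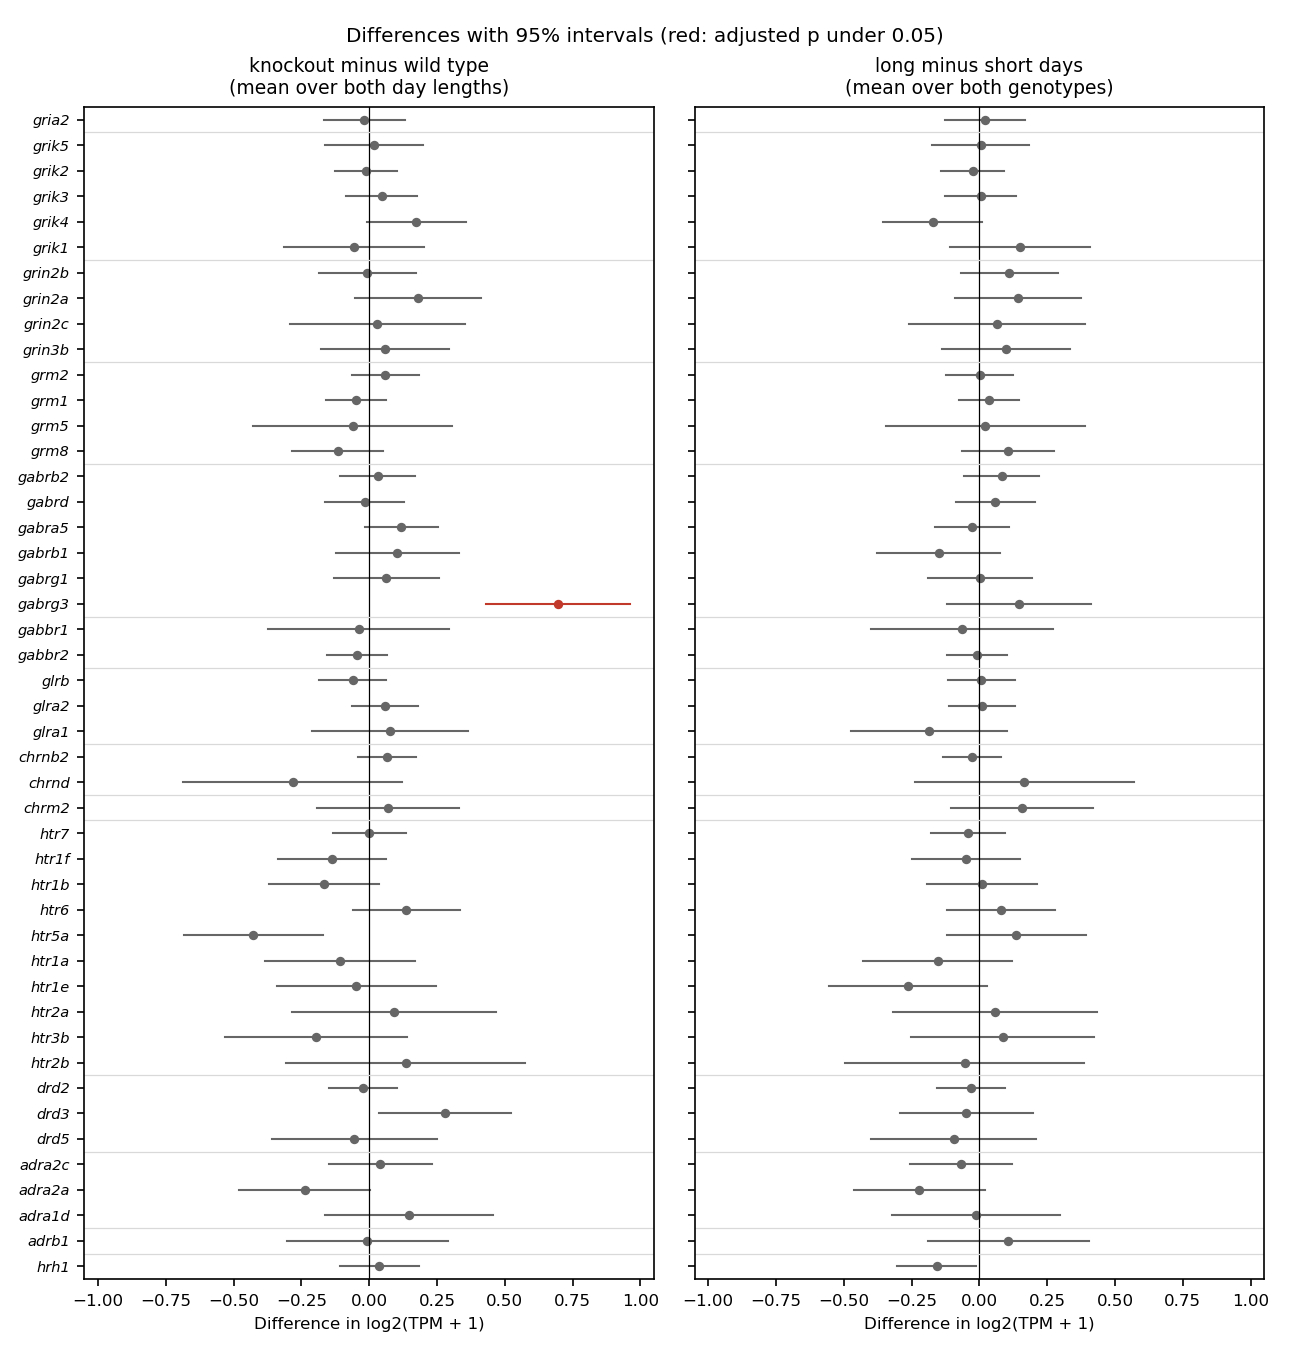
Difference in log2(TPM + 1) for each of the 46 receptor genes, knockout minus wild type over both day lengths (left) and long minus short days over both genotypes (right), with 95% intervals as lines. The called difference, in red, is gabrg3 at 0.70 in the genotype panel, and every interval in the day length panel lies between -0.56 and 0.57.

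Long days were compared with short days in the same fit. No receptor gene passed, in either genotype or over both. In wild type limma called 0 of 46, against 0.192% of all genes, and none had an unadjusted p under 0.05, beside 11.6% of all genes. In the knockout it called 0 of 46, against 1.76% of all genes, and none had an unadjusted p under 0.05, beside 15.9% of all genes. Over both genotypes it called 0 of 46, against 3.08% of all genes, with 1 at an unadjusted p under 0.05, hrh1, beside 18.8% of all genes. The median difference over both genotypes was 0.00 over the receptor genes and -0.01 over all genes, with 26 receptor genes higher and 20 lower under long days. The 95% intervals of all 46 lay within 1.5-fold over both genotypes, and within 2-fold in each genotype, with 36 in the knockout and 34 in wild type also within 1.5-fold. These folds are of TPM + 1, so for low genes the ratio of TPM could be larger.

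The histamine receptor gene hrh1, known from arousal pathways, stood at 15.4, 15.1 and 14.95 TPM in knockout long-day libraries, against 15.1, 17.3 and 17.9 TPM in knockout short-day libraries. In wild type it stood at 14.1, 15.8 and 13.6 TPM under long days, against 15.3, 17.6 and 16.8 TPM under short days. The groups overlapped in both genotypes, and the difference was -0.16 over both (SE 0.07, adjusted p = 0.235), -0.13 in the knockout (adjusted p = 0.536; -0.09 without knockout short-day replicate 4) and -0.18 in wild type (adjusted p = 0.5003). Other differences over both genotypes were -0.22 for adra2a (adjusted p = 0.306), -0.17 for grik4 (adjusted p = 0.295), 0.14 for grin2a (adjusted p = 0.518), 0.11 for grin2b (adjusted p = 0.511) and 0.11 for grm8 (adjusted p = 0.506). The value of grin2a was 0.06 without wild-type short-day replicate 1 and 0.08 without knockout short-day replicate 4. That of grin2b was 0.06 without either knockout short-day replicate 4 or wild-type long-day replicate 14, and that of grm8 was 0.05 without wild-type long-day replicate 14. Of the 14 glutamate receptor genes 12 had a higher and 2 a lower level under long days over both genotypes (median 0.03, log2 scale). Of all genes 47.7% were higher. The split was the same after median-ratio scaling, and none passed. Within the knockout 9 glutamate receptor genes were higher and 5 lower, where 55.8% of all genes were higher. Within wild type 8 were higher and 6 lower, where 38.8% of all genes were higher. After scaling these were 7 and 7 in the knockout and 11 and 3 in wild type.

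Among the 18 monoamine receptor genes 6 were higher and 12 lower under long days over both genotypes (median -0.04), the same split after median-ratio scaling. Within the knockout 9 were higher and 9 lower (median 0.00), where 55.8% of all genes were higher (median 0.03). Within wild type 4 were higher and 14 lower (median -0.10), where 38.8% of all genes were higher (median -0.05). After scaling these were 8 and 10 in the knockout and 6 and 12 in wild type. Whether the splits of the genotypes differ was not tested. In the knockout htr1e, a serotonin receptor coupled to inhibitory G proteins, stood at 3.42, 4.67 and 3.33 TPM under long days, against 4.96, 4.75 and 5.36 TPM under short days, a difference of -0.34 (SE 0.19, adjusted p = 0.420). Also in the knockout, htr5a differed by 0.35 (adjusted p = 0.328), with the values given above, and by 0.21 without knockout short-day replicate 4. For htr6 the difference was 0.27 (adjusted p = 0.327), while grik4 differed by -0.21 (adjusted p = 0.424). The muscarinic gene chrm2, coupled to inhibitory G proteins, averaged 30.8 ± 5.599 TPM in knockout libraries under long days, against 25.4 ± 1.92 TPM in knockout libraries under short days, a difference of 0.26 (adjusted p = 0.501) that was 0.13 without knockout long-day replicate 14, at 36.7 TPM. In wild type the largest test statistics besides hrh1 belonged to adra2a at -0.30 (adjusted p = 0.488), the glycine receptor alpha subunit gene glra1 at -0.27 (adjusted p = 0.620), grin2a at 0.27 (adjusted p = 0.518), the kainate subunit gene grik1 at 0.26 (adjusted p = 0.591) and grm8 at 0.17 (adjusted p = 0.596). Without wild-type short-day replicate 1 the difference was 0.12 for grin2a and -0.17 for glra1. Without wild-type long-day replicate 14 it was 0.17 for grik1 and 0.06 for grm8, and grm8 stood at 0.10 without wild-type short-day replicate 3.

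Long-day and short-day libraries did not overlap for 4 receptor genes in wild type, where 17% of all genes did not, and for 3 in the knockout, where 21.8% of all genes did not. In wild type chrnd, glra2 and gabrg3 were higher and adra2a lower in all long-day libraries. The wild-type values of gabrg3 were all under 1 TPM, and it passed the filter only through its knockout libraries. In the knockout htr6 and htr5a were higher and htr1e lower. Over both genotypes none of the 46 separated, and 2.6% of all genes did. The direction counts within a genotype moved with scaling: in wild type 20 receptor genes were higher and 26 lower under long days, and after median-ratio scaling 28 were higher and 18 lower. Before scaling 38.8% of all genes were higher under long days in wild type.

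Whether the knockout changed the response to day length was tested by the interaction, the long-day difference in the knockout minus that in wild type. Limma called 0 of 46 receptor genes, and none had an unadjusted p under 0.05, beside 7.93% of all genes. Of all genes 0.00549% were called. By the size of the test statistic the largest values were 0.43 for htr5a (SE 0.23, adjusted p = 0.680), 0.39 for htr6 (SE 0.18, adjusted p = 0.635) and 0.18 for gabra5 (adjusted p = 0.739) upward, and -0.40 for the NMDA subunit gene grin2c (SE 0.30, adjusted p = 0.753), -0.27 for grin2a (adjusted p = 0.771) and -0.16 for glra2 (adjusted p = 0.739) downward. The value of grin2c was -0.15 without wild-type long-day replicate 14, that of grin2a -0.11 without wild-type short-day replicate 1, that of htr5a 0.29 without knockout short-day replicate 4, and that of glra2 -0.10 without either knockout long-day replicate 13 or knockout short-day replicate 3. The intervals were wide here, with 25 of 46 within 1.5-fold and 43 within 2-fold, on the scale of TPM + 1. For gabrg3 the interaction was 0.03 (SE 0.24, adjusted p = 0.984), so a different size of its genotype difference between day lengths was not shown.

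Some libraries moved across many receptor genes together. Wild-type long-day replicate 13 held the lowest value of 12 libraries for 11 of the 46 genes, with a median deviation of -0.10 from each gene's mean (log2 scale). Wild-type long-day replicate 14 held the highest value for 15 genes, with a median deviation of 0.10. Knockout short-day replicate 4 was lowest for 9 genes, with a median deviation of -0.09. Over all tested genes the median deviation of these libraries was -0.08, 0.05 and -0.03. Wild-type long-day replicate 13 also held the largest pituitary marker sum, 9503 TPM. Sums nearly as large were found in knockout short-day replicate 1 (9278 TPM) and knockout long-day replicate 13 (9231 TPM), with median receptor deviations of 0.01 and 0.02. Wild-type long-day replicate 15, at 8336 TPM, had -0.02, and knockout short-day replicate 4 had a sum of 3000 TPM. The part of pituitary content was not tested.

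**Figure D4:**
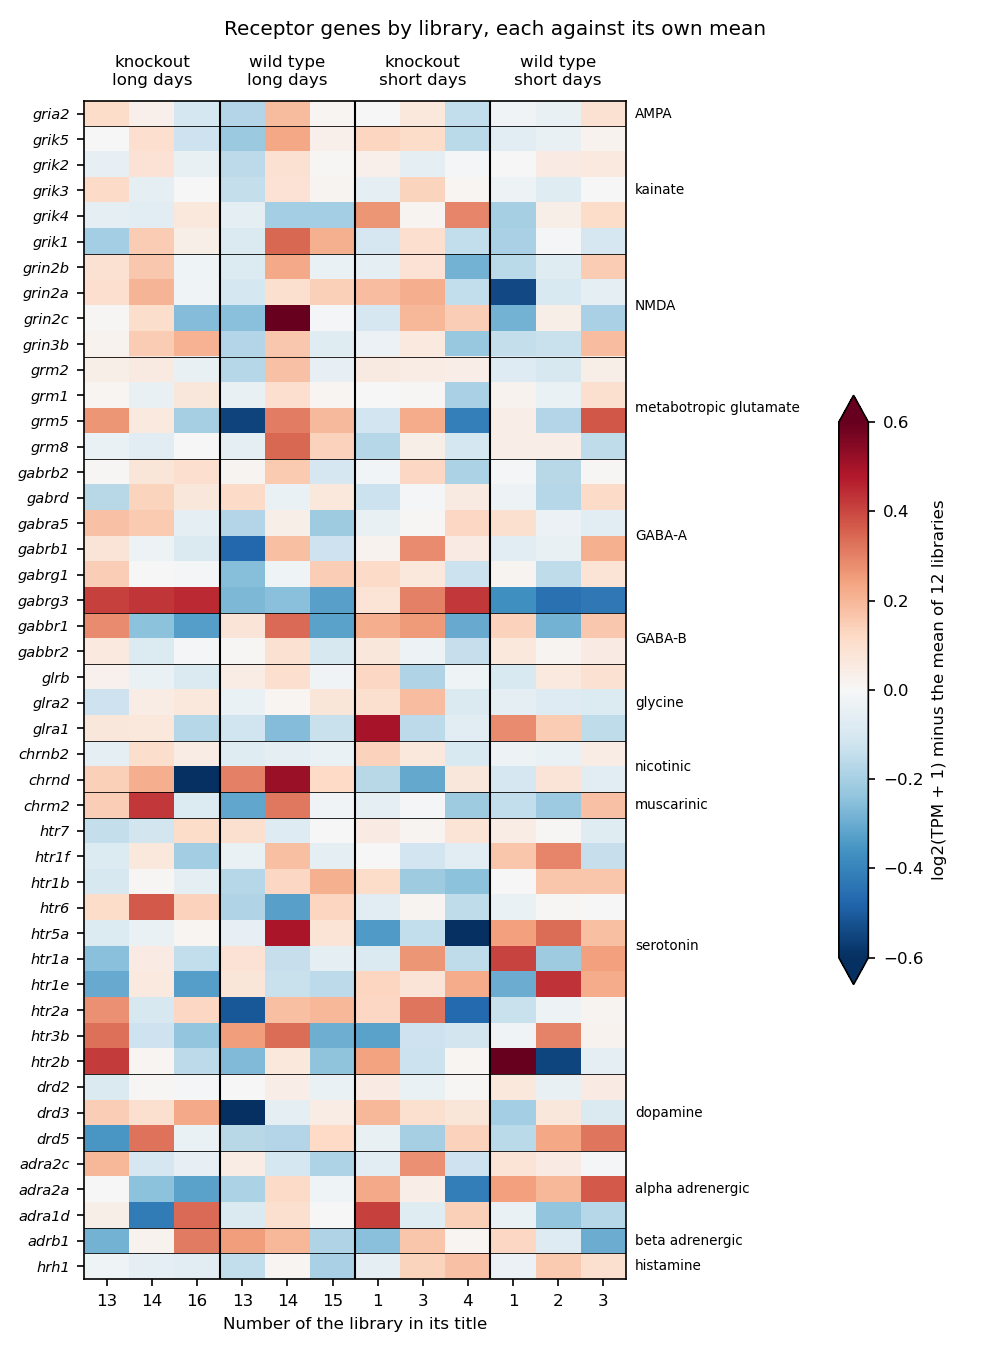
Deviation of log2(TPM + 1) from the gene's mean over 12 libraries, for 46 receptor genes (lines) in the 12 libraries (columns, by group), with colours capped at 0.6 in either direction. The line of gabrg3 is red in all knockout and blue in all wild-type libraries, and the columns of wild-type long-day replicates 13 and 14 run mostly blue and mostly red.

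The genes that make, move and anchor these transmitters were counted from lists, with few calls. Of 18 tested genes for GABA and glycine, 1 was called higher in the knockout over both day lengths and 2 lower under long days over both genotypes, beside 2.4% of all genes called by genotype and 3.08% by day length. Of 30 for glutamate, 1 was called higher in the knockout. Of 14 for monoamines, 1 was called lower under long days, while none of 4 for acetylcholine or of 17 for G protein signalling was called in any of the 7 comparisons. The median genotype difference over both day lengths was 0.01 for the GABA and glycine list, 0.02 for glutamate, 0.03 for monoamines, -0.03 for acetylcholine and 0.01 for G protein signalling, beside -0.00 over all genes. For long minus short days over both genotypes the median was -0.05 for GABA and glycine, 0.01 for glutamate, -0.22 for monoamines with 3 higher and 11 lower, 0.01 for acetylcholine and -0.04 for G protein signalling, beside -0.01 over all genes.

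The synapse organiser gene cbln2 encodes a cerebellin, a secreted protein that joins the sides of a synapse. It stood at 69.1, 81.5 and 70.2 TPM in knockout long-day libraries, against 54.4, 59.7 and 48.2 TPM in wild-type long-day libraries. It stood at 82.2, 84.6 and 81.8 TPM in knockout short-day libraries, against 56.9, 47.5 and 56.2 TPM in wild-type short-day libraries. Knockout libraries lay above wild-type libraries at both day lengths, and the difference was 0.53 over both (SE 0.07, adjusted p = 0.00350) and 0.62 within short days (SE 0.10, adjusted p = 0.0168). The call over both held in all 12 fits that left out a library, and that within short days was lost in 3 of 6, without knockout short-day replicate 3 or wild-type short-day replicate 2 or 3 (adjusted p = 0.0523 to 0.0659).

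Neuroligin, encoded by nlgn2, organises inhibitory synapses, and 2 genes carried that symbol. The called gene (100529174) averaged 74.0 ± 4.55 TPM in knockout long-day, 52.2 ± 6.35 TPM in wild-type long-day, 65.7 ± 10.1 TPM in knockout short-day and 52.5 ± 3.35 TPM in wild-type short-day libraries (SD, n = 3 each), a difference of 0.41 over both day lengths (SE 0.08, adjusted p = 0.0290). That call was lost in 9 of 12 fits that left out a library. Over the 12 fits the difference ran from 0.36 to 0.47 and the adjusted p reached 0.0703, and it was 0.0513 without wild-type short-day replicate 3. The other (100529173) stood at 19.2, 18.5 and 18.4 TPM in knockout long-day libraries, against 24.4, 31.6 and 18.8 TPM in wild-type long-day libraries, and at 29.2, 17.6 and 6.72 TPM in knockout short-day libraries, against 32.4, 34.5 and 30.9 TPM in wild-type short-day libraries. The sum of both was 92.7 ± 4.72 TPM in knockout long-day, 77.1 ± 10.9 TPM in wild-type long-day, 83.6 ± 15.5 TPM in knockout short-day and 85.05 ± 2.32 TPM in wild-type short-day libraries. The copies ran in opposite directions, and reads they share may be divided between them, so the split is uncertain.

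Under long days gad1, which makes GABA from glutamate, averaged 56.4 ± 1.72 TPM in knockout and 67.8 ± 8.85 TPM in wild-type libraries, against 72.6 ± 4.61 TPM in knockout and 77.1 ± 4.30 TPM in wild-type libraries under short days. The long-day difference over both genotypes was -0.27 (SE 0.06, adjusted p = 0.0454). For clptm1, a protein that holds GABA-A receptors back inside the cell, it was -0.29 (SE 0.06, adjusted p = 0.0277). For dbh, which makes noradrenaline from dopamine, it was -0.39 (SE 0.09, adjusted p = 0.0375). Of 12 fits that left out a library, the call was lost in 11 for gad1, 7 for clptm1 and 9 for dbh, and without wild-type short-day replicate 3 the adjusted p was 0.0950 for gad1, 0.0638 for clptm1 and 0.0801 for dbh. The differences kept their direction in all 12.

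Markers of cell types moved with genotype in part. Of 8 tested oligodendrocyte markers 7 were higher in the knockout under long days and 6 lower under short days, and none was called. Radial glia marker sums over 8 genes ran from 6060 to 6504 TPM in knockout and 6610 to 7003 TPM in wild-type long-day libraries. Under short days they ran from 5567 to 6151 TPM in knockout and 5630 to 5776 TPM in wild-type libraries. Neuronal marker sums over 9 genes ran from 4532 to 4905 TPM in knockout long-day, 4578 to 4920 TPM in wild-type long-day, 4880 to 5174 TPM in knockout short-day and 4314 to 4639 TPM in wild-type short-day libraries. Of these, 1 of 9, uchl1, was called higher in the knockout (0.23, adjusted p = 0.0426). Over both day lengths 7 were higher and 2 lower in the knockout (median 0.07). Under long days gap43 was lower in the knockout, at 502 to 549 TPM against 642 to 652 TPM in wild type. Under short days its values overlapped. Microglia marker sums over 5 genes ran from 235 to 281 TPM in knockout long-day, 317 to 434 TPM in wild-type long-day, 224 to 275 TPM in knockout short-day and 312 to 383 TPM in wild-type short-day libraries, with 1 of 4 tested, cd74, called lower (-0.47, adjusted p = 0.0304) and tmem119 at 0.14 TPM or less. Most of these sums came from cd74, which averaged 228 TPM in knockout and 329 TPM in wild-type long-day libraries. Its short-day means were 229 TPM in knockout and 308 TPM in wild type. All 4 tested markers were lower in the knockout over both day lengths (median -0.24). Immediate early genes, which neurons switch on when active, summed over 10 genes to 422 to 558 TPM in knockout long-day, 349 to 382 TPM in wild-type long-day, 517 to 837 TPM in knockout short-day and 426 to 501 TPM in wild-type short-day libraries. Of 9 tested, 3 were called higher in the knockout, egr2 at 0.83, ier2 at 1.07 and npas4 at 0.84, beside 2.4% of all genes. Under long days 9 of 9 were lower over both genotypes (median -0.26), and npas4 was called (-0.87, adjusted p = 0.0332). The highest immediate early sum, 837 TPM, fell in knockout short-day replicate 4. Of defining markers of muscle and retina, myog and rho were each at 0 in 11 of 12 libraries. The muscle list summed to 0.63 to 2.11 TPM over 3 matched genes. The retina list summed to 46.0 to 60.5 TPM over 2 matched genes. In the 11 libraries without rho that sum came from the other gene, whose standing as a retina marker was not checked. Endothelial marker sums over 6 genes ran from 119 to 127 TPM in knockout long-day, 88.8 to 105 TPM in wild-type long-day, 111 to 125 TPM in knockout short-day and 99.3 to 112 TPM in wild-type short-day libraries, with 6 of 6 higher in the knockout over both day lengths (median 0.20) and none called. By genotype the calls also took in the glial marker s100b at -0.33, the pituitary marker pou1f1 at 0.46 and the stress gene ddit3 at -0.45, each 1 gene of its list. Over both day lengths 3 tested glial markers were higher and 3 lower in the knockout (median -0.02). The pituitary markers split into 3 higher and 4 lower (median -0.0006), and the stress genes into 2 higher and 2 lower (median 0.08). With day length, 3 of 7 tested pituitary markers were called higher under long days over both genotypes, beside 3.08% of all genes called. They were the gonadotropin subunit genes fshb at 2.71, lhb at 2.40 and cga at 2.26 (log2 scale). Of the 7 tested pituitary markers 4 were higher and 3 lower under long days (median 0.11). The gonadotropin subunit genes are among the markers in the pituitary sums above. Among 6 tested radial glia markers cyp19b at 1.51 and s100b at 0.39 were also called higher. Of these 6 genes 4 were higher and 2 lower under long days, with a median of 0.05. Of 12 fits that left out a library, the genotype call was lost in 11 for uchl1, 6 for cd74, 10 for npas4, 9 for s100b, 10 for pou1f1 and 11 for ddit3, and in none for egr2 and ier2. The day length call over both genotypes was lost in 7 for npas4 and in none for fshb, lhb, cga, cyp19b and s100b. Without wild-type short-day replicate 3 the adjusted p for genotype was 0.0913 for uchl1, 0.0729 for cd74, 0.0677 for npas4, 0.0677 for s100b, 0.116 for pou1f1 and 0.0717 for ddit3. By day length over both genotypes npas4 had an adjusted p of 0.0757 without that library, and the fshb difference was 2.40. The part of these shifts in the receptor values was not tested.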

How the data were processed

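Brain RNA of 12 samples was sequenced. The authors deposited 1 TPM value per gene and library, rounded to 2 decimals, and every library has the same total within rounding. STAR 2.7.9a and RSEM 1.3.1 are named in the submitters' processing notes. Their genome build was not given in the sources used here, and coordinates are left out. Symbols and gene order came from RefSeq for assembly ASM223467v1 by gene ID, which matched all 26663 genes. Reads shared by near-identical copies are divided between them by such quantification, which leaves their split uncertain.

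Genes with at least 1 TPM in at least 3 libraries (18218) entered as log2(TPM + 1) into 1 fit of 4 group means with limma 3.58.1 in R 4.3.3, with a mean-variance trend, no further scaling and no replicate block. There were 7 contrasts, two-sided, with Benjamini-Hochberg adjustment over all tested genes. The fit was tried on simulated independent normal values, with planted differences larger than those of any receptor gene here. No shift shared across the genes of a library was simulated. The trial therefore does not show how well differences of the size reported here are found. Groups came from the sample titles and labels. Genes were named if called, if among the 3 highest or lowest test statistics of a contrast, or if highest or lowest in their class, and listed pathway genes if called. The members, lists and tests were chosen with earlier results of these data known. Alternatives were a pseudocount of 0.1, no filter, a filter of at least 5 TPM, median-ratio scaling, no trend, array weights, a fit to only the groups compared, a replicate block and leaving out each library. No sample was left out. Some genes that match the rule are not reported here.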

Additional observations from a re-analysis of the deposited data

How the results depend on the processing

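The 42 receptor differences named as called or for their test statistic, and the 29 called differences of pathway and marker genes, kept their direction under the alternatives run for them, with 0 reversals. The alternatives for pathway and marker genes were chosen after seeing the data. Leaving out 1 library moved 22 of the 42 by over 1.5 times toward 0, and ended the call for 15 of the 29. With no trend in the prior variance nlgn2, cd74, uchl1, pou1f1, ddit3 and s100b were not called by genotype, clptm1, gad1 and dbh by day length, or npas4 by either, over both levels of the other factor (adjusted p = 0.0505 to 0.0869). The count of receptor genes called between genotypes over both day lengths was 1, and it was 0 with a filter of at least 5 TPM, which leaves gabrg3 untested, and 2 with no filter, when chrna9 joined. Leaving out 1 library at a time gave 1 in all 12 fits, in which the filter was not applied anew. Within short days the count was 0 and became 1 (gabrg3) with no filter and 1 with no trend in the prior variance. Within long days it was 0 and became 1 (gabrg3) with no filter, 1 with no trend and 1 with array weights. The cause was not tested. The 3 day length comparisons and the interaction stayed at 0 under every alternative run.

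Knockout and wild-type groups of a day length share some library numbers. Deviations of same-numbered pairs correlated from -0.048 to 0.088 (4 pairs), against -0.14 to 0.092 for other pairs (14). Under short days the same-numbered pairs, at 0.082 and 0.088, lay above all other pairs, which reached 0.048. So few pairs show no strong pairing by number and cannot exclude a weak one. With the number as a replicate block (correlation 0.044) the count was 1 over both day lengths, 0 within short days, 0 within long days and 0 for the interaction. Long-day and short-day groups share no numbers.

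TPM leaves depth unknown, so genes near 1 TPM, gabrg3, chrnd and htr2b among them, have no counting error to set beside their spread. With 3 libraries per group the interaction was the least precise comparison.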
